A study of Mus musculus with 4 samples.

Results

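Integrins and laminins are the receptors and the ligands through which a stromal cell holds on to its matrix, and their genes were followed here in the open chromatin of bone MSCs (mesenchymal stem cells) of the mouse. The assay was ATAC-seq, which reads out open chromatin as the places where the transposase Tn5 can cut and tag the DNA. The cells came from the hind limbs of wild-type male C57BL/6N mice of 3 to 5 months, grew out of bone pieces in 2% O2, and were sorted (day 12 in the labels) as CD45-/TER-119-/CD140a+/Sca-1+ cells. They were then either kept in 2% O2 (Hypoxia, 2 libraries) or moved to 21% O2 for a further week (Normoxia, 2 libraries), with 50000 cells per library, so both groups had gone through the same outgrowth in low oxygen and neither was a freshly isolated population. The study describes its ATAC-seq replicates as biologically independent experiments, but whether animals were pooled is not given in the sources used here. The members were all peaks of the deposited table that overlapped the body, or the 5 kb upstream, of a GENCODE M21 protein-coding gene whose symbol starts with Itga, Itgb, Lama, Lamb or Lamc followed by a digit. This gave 366 of 128055 peaks and 35 genes, of which 21 encode integrin subunits, 11 encode laminin chains and 3 (Itgb1bp1, Itgb1bp2 and Itgb3bp) encode proteins named for binding an integrin tail. Itgb2l, a β2-like subunit, was the 1 gene without a peak. The peaks were divided into 44 promoter peaks, within 1 kb of where a protein-coding transcript of the gene starts (33 genes), 314 intragenic peaks in the rest of the gene body and 8 upstream peaks.

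An integrin is a pair of 1 α and 1 β chain that spans the membrane, with the outer part gripping matrix proteins and the short tails tied through talin and kindlin to the actin cytoskeleton. The α chain largely sets the ligand: collagens, laminins, or proteins with an arginine-glycine-aspartate (RGD) motif such as fibronectin and vitronectin. Laminins are cross-shaped trimers of an α, a β and a γ chain that assemble into the sheet of basement membranes, and stromal cells both make them and bind them.

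The sequences under the peaks on which the results turn are given first, with build and strand. The first pair are the 250 bases before the RefSeq start (RefSeq, build GRCm38.p6) of Itgb8, whose promoter peak had the lowest FDR among the promoter peaks of these genes, and of Itgb1, the common β partner. The next is the central 300 bases of the Itgb3 intron 2 peak, the lowest FDR among the intragenic peaks, and the last the central 300 bases of the Lama2 intron 12 peak, which was higher in normoxia. Capitals mark matches to the letters searched on both strands: TGANTCA (AP-1), GGAATG (TEAD), TGTGGT (RUNX), ACGTG (hypoxia response) and GGGCGG (SP and KLF). In the Itgb3 window the AP-1 match and the TEAD match, read on the other strand, overlap in 1 run of capitals. The GENCODE M21 start of Itgb8 is at 119238802, upstream of its RefSeq start. The Itgb8 window thus lies inside the GENCODE gene body, within the promoter peak.
Itgb8 promoter, chr12:119238277-119238526, minus strand: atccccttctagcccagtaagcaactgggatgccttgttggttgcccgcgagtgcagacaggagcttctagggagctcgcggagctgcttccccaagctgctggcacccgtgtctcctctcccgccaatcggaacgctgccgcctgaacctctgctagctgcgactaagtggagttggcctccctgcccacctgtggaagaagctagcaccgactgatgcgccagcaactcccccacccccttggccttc
Itgb1 promoter, chr8:128685404-128685653, plus strand: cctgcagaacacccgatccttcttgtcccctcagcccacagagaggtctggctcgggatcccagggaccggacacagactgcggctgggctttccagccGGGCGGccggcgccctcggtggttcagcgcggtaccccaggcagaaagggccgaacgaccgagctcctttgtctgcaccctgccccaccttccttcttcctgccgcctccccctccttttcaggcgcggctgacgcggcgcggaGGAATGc
Itgb3 intron 2, chr11:104628001-104628300, plus strand: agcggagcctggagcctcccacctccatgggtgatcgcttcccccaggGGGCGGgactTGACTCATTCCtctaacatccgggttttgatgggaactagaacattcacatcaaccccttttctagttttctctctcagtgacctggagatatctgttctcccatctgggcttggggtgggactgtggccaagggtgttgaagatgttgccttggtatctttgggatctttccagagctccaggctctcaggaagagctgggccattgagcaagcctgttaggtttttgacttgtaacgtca
Lama2 intron 12, chr10:27322551-27322850, minus strand: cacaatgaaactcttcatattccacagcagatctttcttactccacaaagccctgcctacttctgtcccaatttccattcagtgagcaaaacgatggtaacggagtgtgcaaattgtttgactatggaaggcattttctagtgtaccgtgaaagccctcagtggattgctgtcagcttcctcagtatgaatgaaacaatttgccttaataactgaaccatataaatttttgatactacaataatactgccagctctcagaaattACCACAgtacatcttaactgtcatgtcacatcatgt

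A pair of scales is used. The deposited signal of a peak is its reads per library total, multiplied by 1e+07 and not divided by peak width. Fold changes are normoxia over hypoxia on log2(value + 1) after scaling each library by its relative log expression (RLE) size factor, which puts the median of all peaks at 0.00. On the deposited scale that median was -0.44, and nuclear peaks held 31.0% to 35.2% of the reads in normoxia and 49.2% to 53.2% in hypoxia, at library totals of 26680936 to 29965523. A peak is said to fall or rise where limma gave a false discovery rate (FDR) under 0.01 over all 128055 peaks, with no filter on low values, so all 366 member peaks were tested. In a bulk library a lower signal in each cell and fewer cells with an open site cannot be told apart. Both genes of the positive sort gate, Ly6a and Pdgfra, and all 6 stromal markers had a promoter peak. Ptprc (CD45), Cdh5, Emcn, Cdh1 and Krt18 had none. The summed promoter signal of the blood markers was 622 to 647 in hypoxia and 397 to 443 in normoxia (5 of 6 genes with a peak), of the endothelial markers 92.7 to 96.6 and 58.5 to 75.4 (3 of 5), of the epithelial markers 53.4 to 61.2 and 36.4 to 42.0 (3 of 5), and of the stromal markers 1727 to 1950 and 993 to 1038 (6 of 6). None of the 14 promoter peaks of the blood, endothelial and epithelial lists was called by limma or by edgeR on recovered reads, and none had an unadjusted p under 0.05. Their part in the results was not tested.

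At the promoters, 7 of 44 peaks fell in normoxia and 0 rose. That is 15.9%, against 16.7% of all 17661 promoter peaks of protein-coding genes that fell and 0.442% that rose, so the share of falling integrin and laminin promoters was near that of promoters at large. At an unadjusted p under 0.05, 19 promoter peaks were lower (43.2%, all promoter peaks 44.1%) and 2 higher. EdgeR on the recovered reads called 8 lower and 0 higher, beside 3525 lower and 126 higher of all 17661 promoter peaks. Inside the genes 9 of 314 peaks fell (2.87%, background 2.32%) and 6 rose (1.91%, background 1.86%). Of the 8 upstream peaks limma called 0 and edgeR called 0, and 1 was lower at an unadjusted p under 0.05 (12.5%). Of all 3277 upstream peaks limma called 2.87% lower and 1.16% higher, and 13.1% were lower at that unadjusted p. Over all 366 peaks, 4.37% fell and 1.64% rose, where 4.57% and 1.77% of all peaks did. The median log2 fold change was -0.26 in member promoter peaks (all promoter peaks -0.27) and 0.00 in member intragenic peaks (all intragenic peaks 0.05). The balance of falls and rises depended on the scaling. On the values as deposited 86 member peaks were lower and 2 higher, and with equal totals over nuclear peaks, which moved the median of all peaks to 0.13, 9 were lower and 10 higher. It depended on single libraries too: without Hypoxia 1 or Hypoxia 2 limma called 0 peaks of the whole table (43 members lower and 21 higher, or 36 and 26, at an unadjusted p under 0.05), and without Normoxia 1 or Normoxia 2 it called 17 members lower and 3 higher, or 19 and 4. The promoters of Itgb8, Itgb1, Itga5, Itga1, Itga2b and Itgb1bp1 were among those that fell. Under quantile normalization and cyclic loess the Itgb8 call held (-0.86 in both), and the calls at Itgb1 (-0.23 and -0.24), Itga1 (-0.22 and -0.22), Itga2b (-0.37 and -0.34) and Itgb1bp1 (-0.35 and -0.35) were lost.

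**Figure D1:**
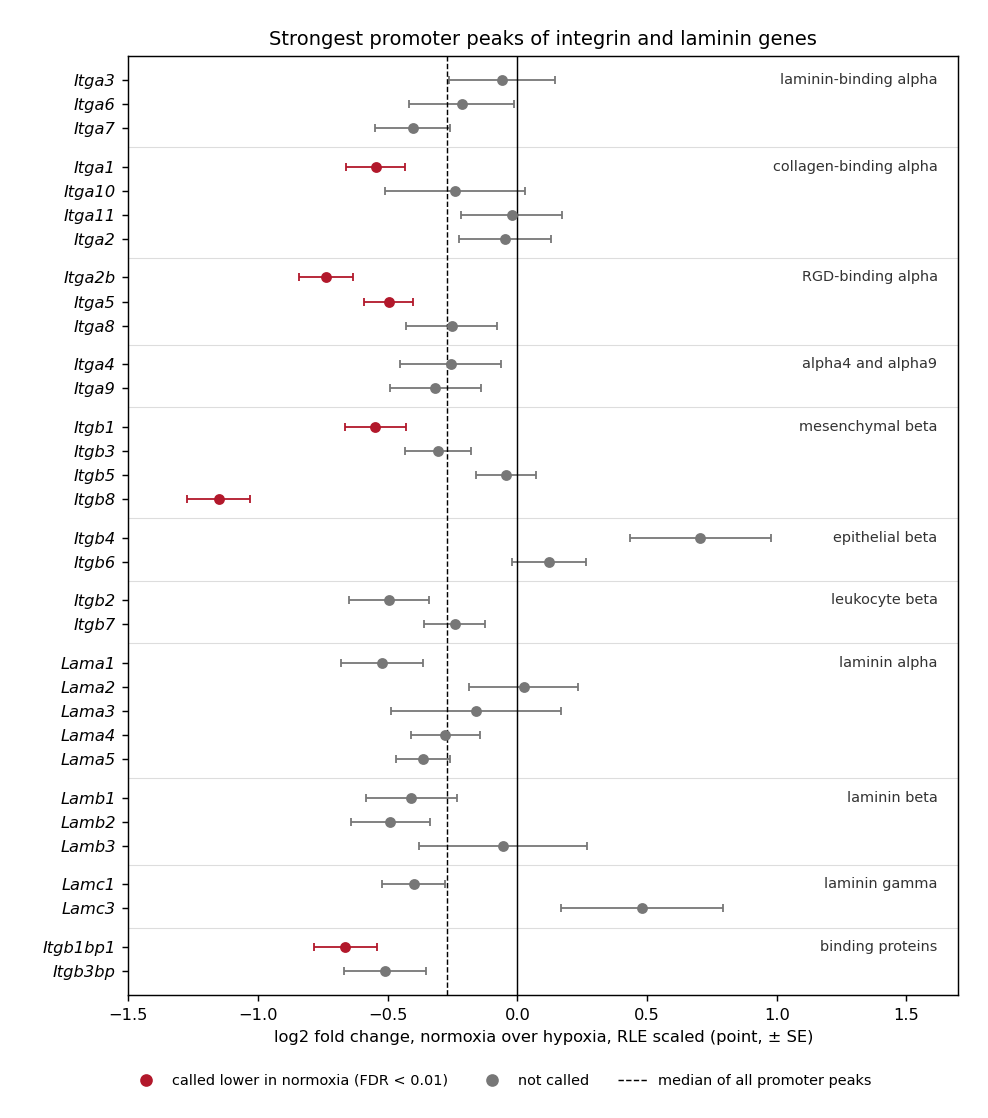
Log2 fold change (normoxia over hypoxia, RLE scaled) of the strongest promoter peak of 32 of the 33 genes with one, grouped by role, with bars for ± 1 SE of the limma fit on 2 libraries per group. The 6 called promoters shown (red) lie between -1.15 and -0.50, and the dashed line is the median of all promoter peaks at -0.27. Itgb4, Lamc3, Itgb6 and, barely, Lama2 stand to the right of 0 without being called.

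The largest fall among the called promoter peaks was that of a β subunit. Itgb8, the β chain of the αvβ8 integrin that activates latent TGF-β, had a 3-kb promoter peak over exon 1 (chr12:119236901-119239900) with a deposited signal of 205 and 233 in hypoxia against 63.0 and 77.8 in normoxia. The normoxia mean was 0.322 of the hypoxia mean, and the scaled log2 fold change was -1.15 (SE 0.12, FDR 1.9e-07). Per kb this promoter had a mean signal of 48.1, the fourth highest of the 44. Itgb1, the partner of most collagen, laminin and fibronectin receptors, read 183 and 204 in hypoxia against 87.0 and 103 in normoxia at its main start (chr8:128685101-128688400), a log2 fold change of -0.55 (SE 0.12, FDR 0.00199). The deposited values of the groups did not overlap at either promoter. On that scale 16741 of all 17661 promoter peaks had a negative log2 fold change. A second Itgb1 start site 38.7 kb into the gene, at exons 13 to 14 of 16, read 34.7 and 33.0 in hypoxia against 29.2 and 28.7 in normoxia and was not called (0.25 after scaling, FDR 0.395), with a sign that rests on the scaling.

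Itgb3, the β chain of the vitronectin receptor αvβ3 and of the platelet fibrinogen receptor, had a promoter that was not called (125 and 138 in hypoxia, 74.2 and 78.1 in normoxia, log2 fold change -0.31, SE 0.13, FDR 0.0983), although 4 peaks inside the gene fell. Itgb5, the β chain of αvβ5, had 2 promoter peaks that differed. The peak at its first start read 87.4 and 80.9 in hypoxia against 37.9 and 44.7 in normoxia (-0.54, SE 0.15, FDR 0.013), just outside the threshold. The stronger one, at an internal start in intron 5, read 176 and 178 against 118 and 129 (-0.04, SE 0.12, FDR 0.84). The 2 promoter peaks of Itgb5 thus stood 0.50 apart on the log2 scale, a difference that was not tested.

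Among α subunits that bind RGD ligands, 2 of 3 promoters fell, beside 16.7% of all promoter peaks. With so few promoters in a group, such counts cannot be compared between ligand classes. Itga5, the α chain of the fibronectin receptor α5β1, lay under a single peak 15.5 kb wide that reached from upstream of the start to exon 6 of 30 (chr15:103356801-103372300). Its signal was 443 and 471 in hypoxia against 218 and 247 in normoxia, or 22.2 per kb over the 4 libraries, and its log2 fold change was -0.50 (SE 0.09, FDR 0.000618). It was -0.13 (FDR 0.32) under quantile normalization and -0.05 (FDR 0.756) under cyclic loess. Itga2b, the platelet α chain αIIb, had a 4.2-kb peak over exons 2 to 12 that came within 783 bp of its start (chr11:102464901-102469100). This peak read 332 and 372 in hypoxia against 138 and 166 in normoxia, and it fell by 0.74 (SE 0.10, FDR 2.17e-05). Itga2b marks platelets and their precursors, which the sort was set to leave out, and whether the peak serves Itga2b itself was not tested. Itga8, a receptor chain for nephronectin, read 42.5 and 51.3 against 26.6 and 29.4 and was not called (-0.25, SE 0.17, FDR 0.348).

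Of the collagen-binding α subunits, Itga1 fell. Its promoter peak over exon 1 (chr13:115100401-115103000), with the highest signal per kb of all member promoters (61.3), read 207 and 221 in hypoxia against 100.1 and 109.8 in normoxia (log2 fold change -0.55, SE 0.11, FDR 0.0015). This peak also lies within 1 kb of the start of the gene model Gm49395. Itga2, Itga10 and Itga11, the last a fibrillar-collagen receptor of mesenchymal cells, were not called. Itga11 read 39.3 and 31.3 in hypoxia against 23.2 and 26.4 in normoxia, for -0.02 (SE 0.19, FDR 0.956), and Itga2 37.9 and 45.6 against 27.4 and 30.4, for -0.05 (SE 0.18, FDR 0.893). Both were thus closer to the median of all peaks than to that of promoters. Itga10 was weak, with 13.4 and 16.0 against 8.25 and 9.34 (-0.24, SE 0.27, FDR 0.597).

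Promoters of the α chains that bind laminin itself were not called in 3 of 3 cases, with 1 at an unadjusted p under 0.05 and 0 called by edgeR. Most promoters were not called either (14639 of all 17661 peaks), and 44.1% were lower at an unadjusted p under 0.05. Itga7, the muscle laminin receptor chain, read 98.4 and 89.4 in hypoxia against 46.1 and 55.7 in normoxia (-0.40, SE 0.14, FDR 0.0548). Itga6, which pairs with β1 or β4, read 29.7 and 34.3 against 20.2 and 19.0 (-0.22, SE 0.20, FDR 0.51). For Itga3, a receptor for laminin-332 and laminin-511 and so for the Lama3 and Lama5 products, the signal was 35.4 and 27.9 against 19.1 and 24.4 (-0.06, SE 0.20, FDR 0.879). The α4 and α9 chains, which share ligands such as osteopontin, gave -0.26 (SE 0.19, FDR 0.399) at Itga4, with 32.9 and 36.4 against 20.2 and 21.0, and -0.32 (SE 0.18, FDR 0.234) at Itga9, with 61.2 and 53.0 against 36.7 and 29.0.

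Apart from Itgb2l, which had no peak, the β chains of epithelium and of leukocytes had open promoters in these cells too. None was called (0 of 5 peaks by limma and by edgeR, with 2 lower and 1 higher at an unadjusted p under 0.05). Limma likewise left 14639 of all 17661 promoter peaks uncalled. Itgb4, the hemidesmosome chain that pairs with α6, had a low promoter signal of 13.1 and 9.52 in hypoxia against 14.99 and 12.3 in normoxia, for 0.70 after scaling (SE 0.27, FDR 0.0756). Itgb6, the β chain of epithelial αvβ6, read 69.7 and 83.0 against 56.2 and 62.7 (0.12, SE 0.14, FDR 0.617). Deposited values of Itgb4 overlapped between the groups, and those of Itgb6 were lower in both normoxia libraries, so its sign rests on the scaling. Itgb2, the leukocyte β2 chain, gave -0.50 (SE 0.16, FDR 0.0288), with 65.1 and 80.9 against 36.4 and 37.0. The larger Itgb7 promoter peak, for a β chain of gut-homing lymphocytes, read 176 and 214 against 119 and 116 (-0.24, SE 0.12, FDR 0.167).

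The laminins were read by chain, with the γ chains first. Lamc1, the γ1 chain of nearly all mesenchymal laminins, read 151 and 181 against 85.5 and 94.1 (-0.40, SE 0.12, FDR 0.0237). Lamc3 had a faint promoter, with 8.49 and 7.14 against 8.995 and 7.34 (0.48, SE 0.31, FDR 0.32).

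Among the laminin α chains the widest promoter peak, 19.2 kb, was that of Lama5, the chain of laminin-511 and laminin-521. It read 350 and 327 in hypoxia against 174 and 205 in normoxia (-0.36, SE 0.10, FDR 0.0171). Lama4, the chain of laminin-411 in vessels and stroma, gave 109 and 110 against 61.1 and 68.7 (-0.28, SE 0.13, FDR 0.158). Lama1, the embryonic laminin-111 chain, gave 76.1 and 75.8 against 31.5 and 45.1 (-0.52, SE 0.16, FDR 0.0241). In each of these the normoxia libraries were below the hypoxia libraries on the deposited scale, without passing the threshold. On that scale 16741 of all 17661 promoter peaks had a negative log2 fold change. Lama2, the muscle and nerve chain, was at 27.6 and 25.2 against 17.6 and 21.0, for 0.02 (SE 0.21, FDR 0.957), and its sign depended on the scaling. Lama3, the epithelial laminin-332 chain, was near the lower end, with 9.91 and 12.6 against 10.5 and 4.67 (-0.16, SE 0.33, FDR 0.791).

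For the laminin β chains, Lamb2, the β2 chain of muscle and kidney basement membranes, read 86.7 and 97.2 in hypoxia against 52.1 and 41.7 in normoxia (-0.49, SE 0.15, FDR 0.0269). Lamb1, the β1 chain of laminin-111 and laminin-411, read 56.3 and 47.6 against 26.2 and 29.4 (-0.41, SE 0.18, FDR 0.112). Lamb3, the epithelial β3 chain, had a weak promoter of 9.91 and 8.16 against 7.12 and 5.34 (-0.06, SE 0.32, FDR 0.933). Per kb of peak, the mean signal was 13.4 at Lama3, 12.7 at Lamb3, 22.4 at Lamb2 and 32.0 at Lamc1.

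Of the binding-protein genes, Itgb1bp1, whose product ICAP-1 holds β1 integrins inactive, fell from 199 and 214 to 81.3 and 107 (chr12:21284901-21287600, -0.66, SE 0.12, FDR 0.000402). This promoter is shared with Cpsf3, a subunit of the pre-mRNA cleavage complex. Itgb3bp, better known as the centromere protein CENP-R, read 67.9 and 72.8 against 30.4 and 40.7 at a start shared with Efcab7 (-0.51, SE 0.16, FDR 0.0276). Itgb1bp2, the muscle protein melusin, had no promoter peak.

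Inside the genes, Itgb3 held 4 of the 9 intragenic peaks that fell, and no other gene held more than 1. The peak with the lowest p lies in intron 2 (chr11:104627301-104629000), 19.3 kb from the start, and read 153 and 174 in hypoxia against 46.8 and 55.7 in normoxia, a log2 fold change of -1.18 (SE 0.13, FDR 4.38e-07). Its neighbour over exon 2 (chr11:104622401-104626800) read 159.9 and 202 against 62.2 and 82.8 (-0.84, SE 0.13, FDR 7.29e-05). Per kb the mean signal was 63.1 in the intron 2 peak, 28.8 in the exon 2 peak and 17.3 in the promoter peak of Itgb3. The other two, outside the rule for naming and given after their values were seen, lie in intron 1 (chr11:104619101-104620500, 41.8 and 46.2 against 15.7 and 16.7, -0.92, SE 0.19, FDR 0.00154) and at exon 8 of 15 (chr11:104640701-104641700, 28.3 and 34.3 against 9.74 and 14.0, -0.89, SE 0.23, FDR 0.00735). Narrow stretches beside them, which the peak caller had given to hypoxia only, had -1.03 (FDR 0.068) and -0.92 (FDR 0.147). Of the 12 intragenic Itgb3 peaks, 11 had a negative log2 fold change, with a median of -0.71. Of all intragenic peaks 45.6% were negative, with a median of 0.05. The 11 include the narrow stretches, whose negative sign follows in part from being given to hypoxia only. The summed signal over the Itgb3 peaks went from 736 and 853 to 344 and 415. The promoter share of that sum rose from 17.0% and 16.2% to 21.6% and 18.8%, one of 4 member genes in which both normoxia libraries were above both hypoxia libraries. Peaks farther down the gene, at 55.8 and 60.5 kb, gave -0.10 and -0.26 and were not called.

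**Figure D2:**
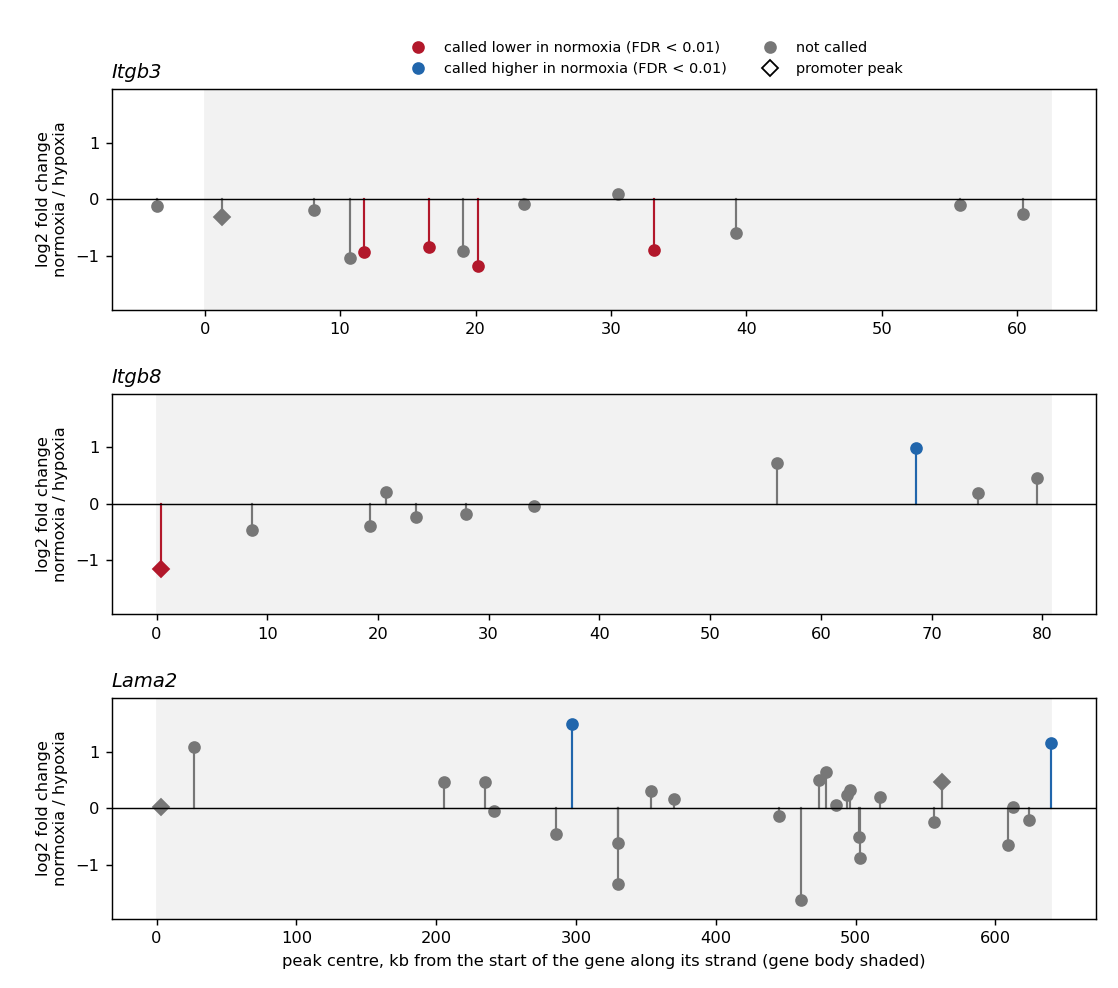
Log2 fold change (RLE scaled) of every peak of Itgb3, Itgb8 and Lama2 against the distance of its centre from the gene start in kb along the strand, with the gene body shaded, diamonds for promoter peaks and colour for the limma call. In Itgb3 the 4 called peaks lie between 11.8 and 33.2 kb while the promoter is not called, in Itgb8 the promoter is called lower and a peak at 68.6 kb higher, and in Lama2 both called peaks are higher and lie 297 kb or more from the start.

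Other intragenic peaks that fell were single peaks of their genes. At Itga1 a 3.2-kb peak at the 3′ end, reaching into the last exon (29 of 29; chr13:114951401-114954600), had been given to hypoxia only by the peak caller. It read 42.8 and 44.2 in hypoxia against 12.7 and 12.0 in normoxia (-1.28, SE 0.21, FDR 0.000108). A peak given to hypoxia only is in the set through the group where it is high. That choice favours a fall, so this FDR is no independent support for one. Itga9 fell in intron 15 (chr9:118728001-118729700), from 66.2 and 85.3 to 25.5 and 36.7 (-0.80, SE 0.17, FDR 0.00146). The Itgb3bp peak (chr4:99927901-99931700) fell from 244 and 248 to 117 and 126 (-0.53, SE 0.11, FDR 0.00141), but it sits at the start of Pgm1, a phosphoglucomutase of glycogen metabolism, inside the long Itgb3bp gene model. Lamb3 (intron 7, chr1:193315101-193318000, -0.59, FDR 0.00703) and Lama5 (intron 2, chr2:180213401-180218100, -0.50, FDR 0.00951) also fell, and these are named after their values were seen.

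The 6 intragenic peaks that rose had no more than 21.0 units of deposited signal in any library. In Lama2, 297 kb into the gene (intron 12, chr10:27322301-27323100), the signal was 6.37 and 9.86 in hypoxia against 14.99 and 20.4 in normoxia (1.49, SE 0.27, FDR 0.000426), from 18 to 61 reads per library. A second Lama2 peak, at the 3′ end of the gene (chr10:26979901-26980600), had 7.08 and 11.2 against 12.7 and 18.4 (1.15, SE 0.28, FDR 0.00466). Normoxia was above hypoxia in all libraries at both, also on the deposited scale, whereas the Lama2 promoter gave 0.02. Itga2 rose in intron 15 (chr13:114863201-114863900), from 7.43 and 6.12 to 11.6 and 13.3 (1.22, SE 0.29, FDR 0.00483). Itgb1bp2 rose at exons 8 to 10 of 11 (chrX:101452201-101453000), from 11.7 and 12.9 to 19.1 and 17.7 (0.99, SE 0.24, FDR 0.00552). The Itgb8 peak at exon 10 of 14 (chr12:119169601-119170800), named after its values were seen, rose from 11.7 and 12.6 to 15.7 and 20.7 (0.99, SE 0.24, FDR 0.0062). Itgb8 was thus the 1 member gene with a peak called in each direction, and the share of its summed signal that lay in the promoter peak went from 49.2% and 47.5% in the hypoxia libraries to 27.7% and 29.0% in the normoxia libraries.

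The remaining rise was in Lama3, in intron 2, 51.4 kb from the start (chr18:12385201-12386300). It read 7.79 and 11.2 in hypoxia against 18.4 and 21.0 in normoxia (1.44, SE 0.25, FDR 0.000301). Of the 8 intragenic peaks of this gene 1 had a negative log2 fold change, with a median of 0.57, and 1 was called. Over all intragenic peaks 45.6% were negative and the median was 0.05. Its summed signal was 153 and 146 in hypoxia against 151 and 148 in normoxia on the deposited scale, a ratio of 1.003, where the other genes ran from 0.45 (Itga2b) to 0.84 (Itga6), with Lamc3 (0.96) and Itgb1bp2 (1.38) above them.

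**Figure D3:**
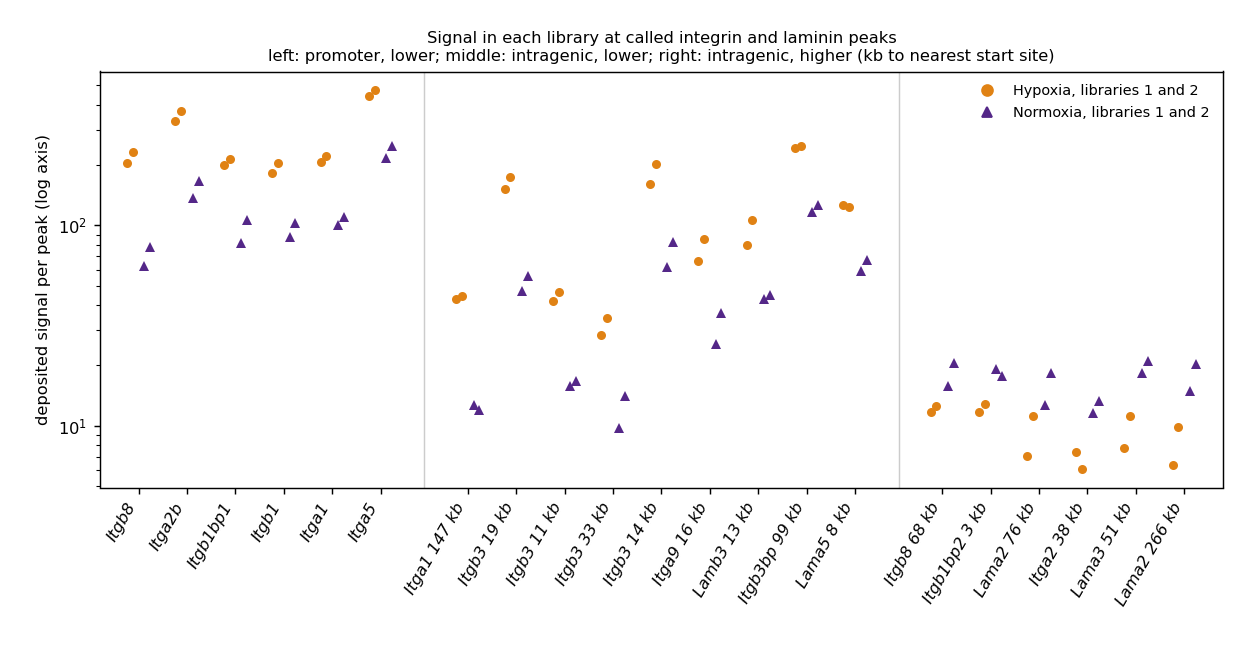
Deposited signal (log axis) in each of the 4 libraries at 21 of the 22 called peaks, circles for Hypoxia and triangles for Normoxia. The left and middle blocks are 6 promoter and 9 intragenic peaks that fell and the right block the 6 intragenic peaks that rose (intragenic peaks are labelled with the distance in kb to the nearest start site). The peaks that rose lie at or below 21.0 units in every library, and the peaks that fell at or above 28.3 in both hypoxia libraries.

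Change inside the genes was also read by the strength of the peak. All 55800 intragenic peaks were put in 4 bins of equal size by mean signal (bounds 6.76, 12.7 and 27.2 units), and the member peaks were read in the same bins. In the second bin the median log2 fold change was 0.27 in members and 0.22 in all, in the third 0.08 and 0.12, and in the strongest -0.14 and -0.09. The weakest bin stood at -0.16 and -0.05, with 28 of its 91 member peaks given to hypoxia only by the caller (30.8%, against 28.4% of all peaks of that bin). Of the 9 peaks that fell 8 were in the strongest bin, as were 985 of the 1294 falls among all intragenic peaks. Of the 6 that rose 2 were in the second bin, 4 in the third and 0 in the strongest, where all intragenic peaks had 296, 384 and 282 rises in those bins and 78 in the weakest. Position in the gene went with smaller differences. Member intragenic peaks 1 to 10 kb from a start had a median of -0.03 (51 peaks), those 10 to 50 kb away 0.01 (185) and those beyond 50 kb 0.08 (78). Peaks that overlapped an exon had -0.03 (68) and those that did not 0.01 (246). None of these differences between medians was tested.

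**Figure D4:**
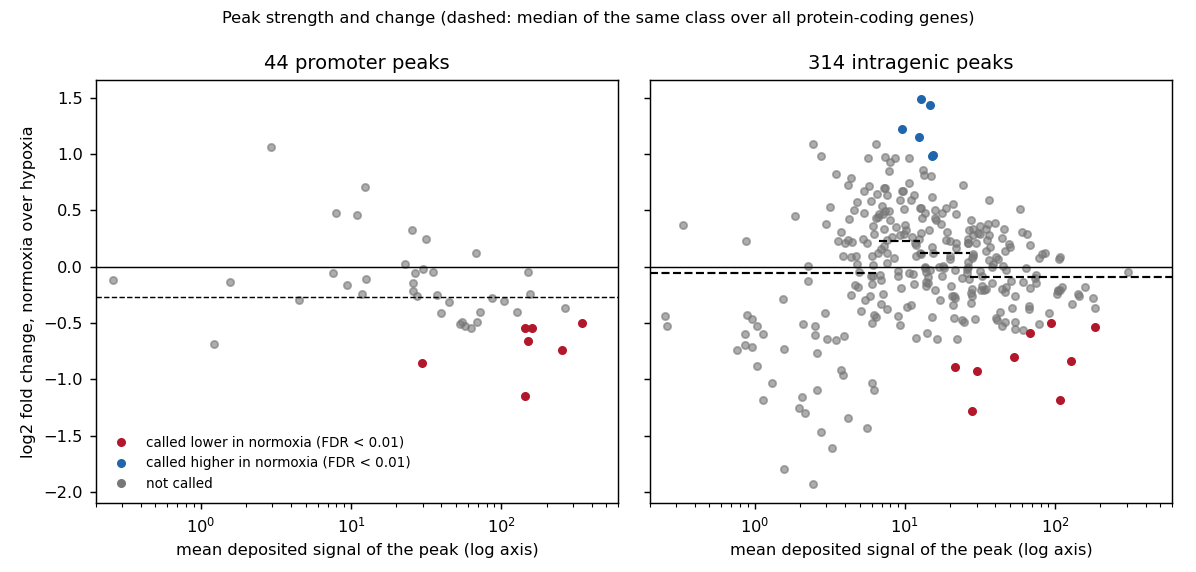
Log2 fold change (normoxia over hypoxia, RLE scaled) against the mean deposited signal of the peak (log axis) for the 44 promoter peaks (left) and the 314 intragenic peaks (right) of the integrin and laminin genes. Dashed lines are the medians of all promoter peaks (-0.27) and of all intragenic peaks in each of the 4 bins of signal (-0.05, 0.22, 0.12 and -0.09), and called intragenic peaks that fell (red) lie mostly in the strongest bin while those that rose (blue) lie in the second bin and the third.

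Within a library the promoters of these genes stood closer to their intragenic peaks in normoxia. The median log2(value + 1) over promoter peaks minus that over intragenic peaks was 1.67 and 1.58 in hypoxia against 1.14 and 1.18 in normoxia, a normoxia minus hypoxia value of -0.46 where the libraries' pooled SD was 0.051 (p = 0.333 in a two-sided exact permutation test, the smallest that 2 against 2 libraries allow). All protein-coding genes gave -0.43, from 2.42 and 2.36 to 1.94 and 1.98. The value of the integrin and laminin genes was -0.24 under quantile normalization, -0.23 under cyclic loess, -0.22 with a promoter window of 2 kb, -0.22 without peaks at the starts of other genes and -0.28 without the binding-protein genes. That of all protein-coding genes is given for the main setting only, so the likeness to it is not shown under these alternatives. Read gene by gene, a lower promoter share in normoxia was seen in part of the genes only. In 16 of the 32 genes with both kinds of peak (50.0%) the promoter share of the summed signal was lower in both normoxia libraries than in both hypoxia libraries, and in 4 (12.5%) it was higher, where 55.5% and 10.9% of 11141 protein-coding genes did so. Little of the signal of the integrin and laminin genes lay at the promoter. The median share was 19.6% to 22.3% in the 4 libraries, against 53.6% to 59.4% over all genes (not tested), and ranged in the first hypoxia library from 2.38% in Lamb3 to 95.5% in Itga5. Their bodies hold many peaks: Itga9 had 31 intragenic peaks over a gene of 294 kb, Lama2 25 over 640 kb, and Itga1 and Lamb3 21 each.

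The rest of the adhesion machinery was counted in lists chosen with earlier results of these data known. Among 21 adaptors that tie integrins to actin, 5 of 35 promoter peaks fell and 1 rose (median -0.17). Those that fell included Ilk, the integrin-linked kinase (568 and 641 in hypoxia, 291 and 352 in normoxia, -0.43), its partner Lims1 (548 and 673 against 283 and 355, -0.46), the focal adhesion kinase Ptk2 (209.8 and 238 against 94.1 and 123, -0.57) and zyxin, Zyx (1438 and 1526 against 723 and 926, -0.38). Talin, Tln1, which switches integrins on, was not called (345 and 363 against 195 and 207, -0.34, FDR 0.0193). Of their other 208 peaks 3 fell (1.44%) and 11 rose (5.29%), beside 2.32% and 1.86% of all intragenic peaks.

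Among 12 other ligands and basement membrane partners, 4 of 16 promoter peaks fell and limma called 0 higher, with 1 higher by edgeR and 1 at an unadjusted p under 0.05. Thbs1, the matrix glycoprotein thrombospondin-1, went from 2980 and 3851 to 1320 and 1444 (-0.82), and Fn1, fibronectin, from 637 and 718 to 315 and 383 (-0.48). Nid2, nidogen-2, which links laminin to collagen IV, went from 411 and 432 to 205 and 262 (-0.38). Among 8 other laminin receptors or integrin partners 4 of 13 fell and 0 rose, where edgeR called 5 lower and 0 higher and an unadjusted p under 0.05 was reached by 0 in the upward direction, including the syndecans Sdc4 (888 and 990 against 431 and 492, -0.55) and Sdc2 (162 and 170 against 62.6 and 81.4, -0.73). Outside promoters 9 of 119 peaks of the ligand list fell (7.56%) and limma called 0 higher, with 1 higher by edgeR and 8 at an unadjusted p under 0.05. In the receptor list 3 of 42 fell (7.14%) and 2 rose (4.76%). The peak caller had given 26 of the 119 (21.8%) and 8 of the 42 (19.0%) to hypoxia only. For the 208 other peaks of the adaptors it was 21 (10.1%), and for all intragenic peaks 7.55%. That choice favours a fall, so these shares and the background are not of like sets. Of the 6 α subunits with a letter, Itgav alone had a promoter peak, and it fell (227 and 239 against 90.7 and 114, -0.71). The αv chain is the partner of β1, β3, β5, β6 and β8. As at the integrin and laminin promoters, each promoter share is to be read beside the 16.7% of all promoter peaks that fell, and each other share beside the 2.32% and 1.86% of intragenic peaks that fell and rose. The other peaks of the lists also take in upstream peaks, of which 2.87% fell and 1.16% rose over all protein-coding genes.

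The searched letters were counted beside those of all peaks of the same class, as a description. Of 41 member promoter peaks wide enough for a central window of 300 bases, 7.32% held the AP-1 letters (all promoter peaks 7.31%), 12.2% TEAD (13.5%), 22.0% RUNX (15.6%), 22.0% ACGTG (20.4%) and 24.4% GGGCGG (37.5%). Of 289 member intragenic windows 23.5% held AP-1 (all 22.0%), 22.5% TEAD (22.1%), 22.1% RUNX (27.9%), 13.1% ACGTG (14.5%) and 7.61% GGGCGG (5.47%). Among the 6 windows that rose 3 held AP-1, 4 TEAD and 3 RUNX, and among the 9 that fell 1, 3 and 1 did, numbers too small for a comparison. Both the Itgb8 and the Itga1 windows before the RefSeq start held none of the 5 motifs, and the Itgb1 window held 1 GGGCGG and 1 GGAATG. The Itgb8 window lies downstream of the GENCODE start, so the bases before that start were not searched. Over the 26 RefSeq promoters of 23 member genes, 30.8% held GGGCGG and 7.69% ACGTG, where 32.7% and 16.6% of 32851 promoters of 250 bases did. The guanine and cytosine content at the centre had a median of 55.7% in member promoter peaks (all 56.7%), 45.7% in member intragenic peaks (all 46.0%), 49.7% in the intragenic peaks that fell and 40.7% in those that rose.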

How the data were processed

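ATAC-seq signal was analysed in the 4 libraries of mouse bone MSCs, 2 per oxygen level, as grouped in the labels. The authors aligned the reads to mm10 with Bowtie2, removed duplicates with Picard and called 1 peak set over both groups with chromstaR, and the deposited signal per peak, which they call RPKM, is not divided by width. Within a tolerance of 0.01, 100% of the values were whole multiples of 1e+07 divided by a whole number specific to the library, which was taken as its total, so reads were recovered. Whether these are fragments or read ends is not given in the sources used here. Recovered totals were 26680936 to 29965523, with 33 to 48 reads in the median peak. Gene models were GENCODE M21, and sequences came from RefSeq on GRCm38.p6.

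Values were scaled by RLE size factors and tested as log2(value + 1), a scale that understates changes of low peaks, with limma 3.58.1 in R 4.3.3 (trend and robust, two-sided, Benjamini-Hochberg over 128055 peaks, called at an FDR under 0.01). The functions were tested on simulated data. With 2 libraries per group, p-values measure the spread between these libraries. Peaks named were all called promoter peaks, the strongest promoter peak of each gene, and the 5 lower and 5 higher called non-promoter peaks with the lowest p, and 1 member gene is counted in the totals but not reported here by name. The members, lists and letters searched were chosen with earlier results of these data known. The alternatives were other scalings, a pseudocount of 0.1 or 5, mean values of at least 5, limma without trend and robust, edgeR 4.0.16 on recovered reads and on deposited values, a replicate block, each library left out, an FDR under 0.05, promoter windows of 500 bp and 2 kb, and leaving out peaks at other genes' starts or the binding-protein genes.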

Additional observations from a re-analysis of the deposited data

How the results depend on the processing

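The 16 falls and 6 rises became 86 and 2 on the values as deposited (median log2 fold change -0.72 at promoter and -0.45 at intragenic peaks), 9 and 10 with equal totals over nuclear peaks (-0.11 and 0.14), 5 and 2 after quantile normalization, 8 and 4 after cyclic loess, 11 and 2 with edgeR on deposited values, and 39 and 16 at an FDR under 0.05. Limma without trend and robust called 0 and 0 (51 lower and 38 higher at an unadjusted p under 0.05), as it called 0 of all 128055 peaks. A minimum mean value of 5 moved the intragenic median to 0.067. Without Hypoxia library 1 or 2 there were 0 calls among all peaks, against 43 and 21, or 36 and 26, members at an unadjusted p under 0.05. Over the 4 fits that leave out a library, falls ranged from 0 to 19, rises from 0 to 4 (3 without Normoxia 1) and the promoter median from -0.32 to -0.24, and a lone library is taken to vary like the other group. The promoter median stayed negative in every alternative that gave a value. So did the promoter minus intragenic difference of -0.46, which was -0.24 under quantile normalization, -0.23 under cyclic loess, -0.22 with a promoter window of 2 kb, -0.22 without peaks at other genes' starts, -0.28 without the binding-protein genes and -0.61 with a window of 500 bp. In the fit with a replicate block 27 peaks fell and 10 rose, with the 16 and 6 among them, but same-numbered libraries did not deviate together (correlation 0.0110 over all peaks), so the numbers are not a pairing. The cause of these shifts was not tested.

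Of the named calls, those of the Itgb8 promoter, Lama3, the Lama2 intron 12 peak, the Itga1 3′ peak and the Itgb3 exon 2 and intron 2 peaks held in each of the 10 alternatives aside from limma without trend and robust and the left-out libraries. The Itga1 3′ peak had been given to hypoxia only, and every alternative shares that selection. The promoter calls of Itgb1 and Itga1 were lost under equal totals, quantile normalization and cyclic loess, and those of Itga5, Itga2b and Itgb1bp1 under quantile normalization and cyclic loess. The rises of Itga2, Itgb1bp2, Itgb8 and the Lama2 3′ peak were lost as deposited, under quantile normalization and cyclic loess and with edgeR on deposited values, and that of Itgb8 also with a pseudocount of 0.1. The intragenic falls of Lamb3 and Lama5 were lost under equal totals, quantile normalization, cyclic loess, a pseudocount of 0.1 and edgeR on deposited values, that of Itgb3 exon 8 under the same except cyclic loess, that of Itgb3bp under equal totals, quantile normalization and cyclic loess, that of Itga9 under quantile normalization and that of Itgb3 intron 1 with edgeR on deposited values. No called peak changed sign. Uncalled promoter peaks that did were Itga11 (0.12), Itga2 (0.10), Lamb3 (0.078), Itga3 (0.085) and Itgb5 (0.11) under equal totals, Lama5 (0.011), Itgb7 (0.091), Itgb5 (0.29) and Lama2 (-0.044) under quantile normalization, Lama5 (0.043), Itgb7 (0.083), Itgb5 (0.28) and Lama2 (-0.037) under cyclic loess, and Itgb6 (-0.35) and Lama2 (-0.43) as deposited. Leaving out a library gave -0.24 to 0.18 at Itga11, -0.13 to 0.021 at Itga2, -0.10 to 0.13 at Lama2, -0.74 to 0.42 at Lama3, -0.29 to 0.19 at Lamb3 and -0.29 to 0.15 at Itga3. Peaks under about 10 units rest on few reads, and the test could not tell small changes there.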
